A study of Homo sapiens with 10 samples.

Results

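The comparison described here set U87 cells that overexpress MEOX2 against U87 cells that carry an empty vector, gene by gene across the transcriptome. U87 is an established human glioblastoma cell line. The empty-vector (EV) cells and the MEOX2-overexpressing (OE) cells were both stable lines made with lentivirus, and the overexpressed protein carried a Flag tag. The libraries U87-EV-1 and U87-EV-2 were compared with U87-OE-1 and U87-OE-2, so 4 of the 10 libraries of the series were used for the main comparison, with 2 libraries a side. Of the 34567 genes in the count table, 14180 passed a filter on low counts in the U87 groups and were tested. The other 6 libraries came from SNB19, a second glioma line, treated with a scramble siRNA or a MEOX2 siRNA for 3 libraries each, and they are used only for a side-by-side view at the end. The labels do not say whether the libraries of a group came from separate cultures, so every p-value here measures the spread between these libraries, which may be technical. Differences between the derived cell lines other than MEOX2 cannot be told apart from its effect in this design.

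MEOX2 (mesenchyme homeobox 2) is a homeodomain transcription factor that patterns somites and limb muscle in the embryo. In the adult it is best known from vascular smooth muscle and endothelium, where it restrains proliferation. Homeodomain proteins bind short DNA elements rich in A and T and can raise or lower transcription depending on their partners.

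The 4 U87 libraries held 12533775 to 16157874 counts each. The OE libraries matched each other closely, with a Pearson r of 0.992 over log2 CPM (a gene's share of its library, scaled to a fixed total) and 2.39% of genes apart by more than 2-fold. The EV libraries did not: r was 0.898, 38.1% of genes differed by more than 2-fold, and 78.7% differed by more than binomial sampling of the counts would give, against 26.3% for the OE pair. Their difference followed gene length. In the 1418 shortest tested genes (75 to 1653 bases) U87-EV-1 stood above U87-EV-2 by a median of 1.09 on the log2 scale, and in the 1418 longest (10437 to 205012 bases) the log2 ratio was -0.84. The same medians for U87-OE-1 over U87-OE-2 were -0.076 and 0.099. The median count of U87-EV-1 fell on a gene of 3947 bases, while those of the other U87 libraries fell on genes of 5217 to 5340 bases. U87-EV-1 was therefore the library that stood apart, and each change below is given against both EV libraries and against U87-EV-2 alone.

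**Figure D1:**
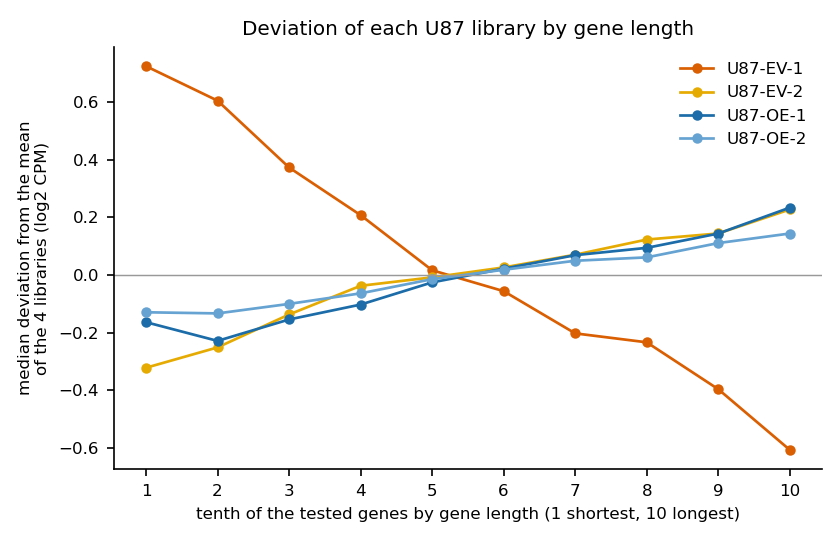
Median deviation of each U87 library from the mean of the 4 libraries (vertical axis, log2 CPM) in 10 bins of the tested genes by length (horizontal axis, 1418 genes a point). U87-EV-1 runs from 0.73 in the shortest genes to -0.61 in the longest, while the other libraries run the opposite way within -0.32 and 0.23. Because the mean includes U87-EV-1, its slope by itself pushes the other libraries the opposite way.

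Against both EV libraries, no gene reached an adjusted p of 0.05 in edgeR's quasi-likelihood test (0% of those tested, lowest adjusted p 0.124). At an unadjusted p below 0.05, 1132 genes were higher (7.98%) and 1511 were lower (10.7%) in the OE libraries, and DESeq2 called 991 genes at its adjusted threshold, 33% of them higher. Against U87-EV-2 alone, with the spread taken from the OE pair, 3484 genes were higher (24.6%) and 3606 were lower (25.4%) at an adjusted p below 0.05. Both OE libraries stood above both EV libraries for 4192 genes (29.6%) and below both for 4056 (28.6%).

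Because the planned test called nothing, a combined rule was set after these counts were seen. A gene is said to have risen or fallen below only if it passed an adjusted p of 0.05 against U87-EV-2 alone, an unadjusted p of 0.05 against both EV libraries, kept 1 direction and had no overlap between the groups. By this rule 1111 genes rose (7.83%) and 1446 fell (10.2%). The unadjusted p against both EV libraries alone gave 1132 and 1511, so the other conditions, which reuse the same libraries, removed few genes. The rule therefore rests mainly on a p that is not adjusted for the number of genes tested. Without U87-OE-1 the rule gave 253 and 305 genes, and without U87-OE-2 it gave 288 and 383. The median log2 fold change of those that rose was 1.38 against both and 1.17 against U87-EV-2 alone, and of those that fell it was -1.51 and -1.15. More than 4-fold changes against both were seen in 273 that rose and 394 that fell. DESeq2 against both EV libraries also called 324 of the genes that rose and 593 of those that fell, and a fit corrected for gene length called 15 and 7. Over all tested genes the median log2 fold change was -0.057 against both and 0.0089 against U87-EV-2 alone. Levels are given as CPM in the order U87-EV-1, U87-EV-2, U87-OE-1, U87-OE-2, scaled between libraries by TMM factors.

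**Figure D2:**
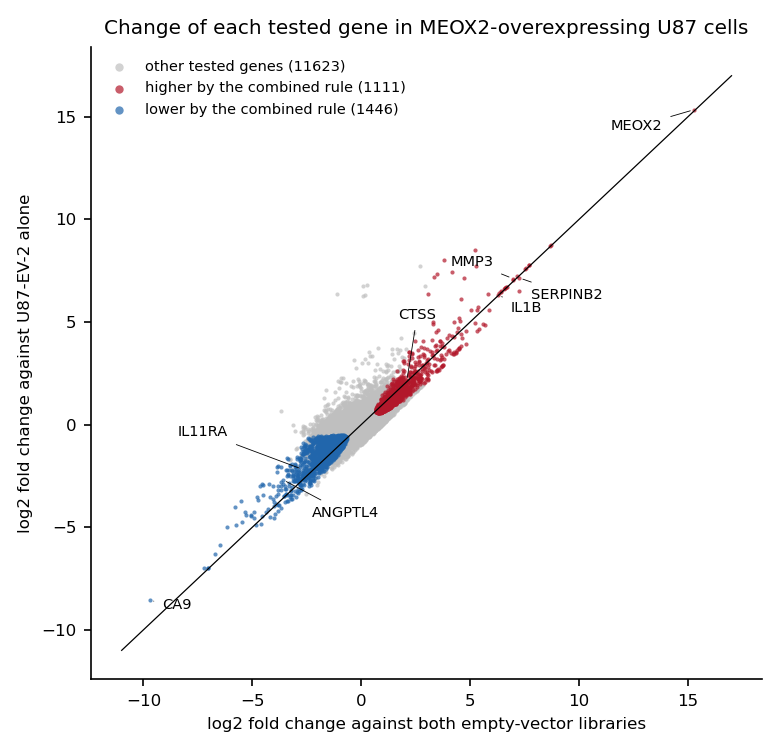
Log2 fold change of each of the 14180 tested genes in MEOX2-overexpressing U87 cells against both empty-vector libraries (horizontal) and against U87-EV-2 alone (vertical), with the diagonal drawn. The 1111 genes that rose are red and the 1446 that fell are blue. For genes with counts in both empty-vector libraries, a point clearly above the diagonal had a higher level in U87-EV-1 than in U87-EV-2. The fitted points of MEOX2, ESM1, MMP10 and other genes rest on a count of 0 in both.

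MEOX2 itself (chr7:15611212-15686812, GRCh38) had 0 counts in both EV libraries and 4999 and 5308 counts in the OE libraries, or 364 and 336 CPM. With the empty-vector level set at a floor of 3 counts over the group, it was at least 3228-fold higher. These counts match the titles, from which the groups were taken. The treatment labels name MEOX2, MEOX3, MEOX4 and MEOX5 in turn down the 4 U87 samples, and the titles of both OE libraries carry the same bracketed name. The counts do not separate the vector's MEOX2 from that of the native locus.

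CTSS, ANGPTL4 and IL11RA were put forward by the study from these same libraries, so their values are not independent evidence. CTSS, the lysosomal protease cathepsin S, stood at 32.7 and 32.3 CPM in the EV libraries and at 137 and 139 CPM in the OE libraries (log2 fold change 2.08 against both, 2.10 against U87-EV-2). ANGPTL4, a secreted inhibitor of lipoprotein lipase, stood at 39.2 and 14.1 CPM against 1.75 and 2.59 CPM (-3.61 and -2.68). IL11RA, the receptor of interleukin-11, stood at 8.58 and 4.68 CPM against 1.31 and 0.76 CPM (-2.67 and -2.19). For CTSS the EV libraries were nearly equal, while for the other two genes U87-EV-1 was the higher one. Beyond these, the largest changes lay in other genes.

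SERPINB2, the plasminogen activator inhibitor PAI-2, went from 9.14 and 10.4 CPM to 1426 and 1525 CPM (log2 fold change 7.24 against both and 7.15 against U87-EV-2). MMP3, the protease stromelysin-1, went from 5.56 and 4.55 CPM to 625 and 639 CPM (6.96 and 7.12). IL1B, the cytokine interleukin-1 beta, went from 17.4 and 16.4 CPM to 1220 and 1390 CPM (6.27 and 6.32). In these 3 genes the EV libraries lay within a narrow range and far below both OE libraries. MMP1, interstitial collagenase, was at 0.48 and 0.73 CPM against 30.9 and 40.3 CPM (5.85 and 5.61). IL24, a cytokine of the interleukin-10 family, was at 2.23 and 1.19 CPM against 91.0 and 103 CPM (5.83 and 6.35). HS3ST2, which sulfates heparan sulfate chains, was at 0.48 and 0.33 CPM against 14.8 and 17.8 CPM (5.32 and 5.6). MYO16, an unconventional myosin, was also far above its low EV level in both OE libraries. It measured 0.32 and 0.20 CPM against 10.3 and 11.3 CPM (5.36 and 5.71).

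Another 4 genes among the 12 with the largest rise rested on 3 or fewer counts over the EV group. They are given as ratios of summed counts with exact binomial intervals that cover counting error only. These 4 genes passed the low-count filter only through the OE libraries and were picked for their rise, so the intervals do not test it. SLAMF7, a surface receptor of lymphocytes, had 1 count in the EV group and 201 in the OE group (ratio 189, 95% interval 33.5 to 7496). EDN1, the vasoconstrictor endothelin-1, had 2 and 187 (ratio 87.9, interval 24.0 to 731). PRR9, a proline-rich gene of the epidermal differentiation complex, had 2 and 119 (ratio 55.9, interval 15.1 to 467). PDE1A, a calmodulin-dependent phosphodiesterase, had 3 and 129 (ratio 40.4, interval 13.5 to 199). Each of the 4 was close to silent in both EV libraries.

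The gene that fell most was CA9, carbonic anhydrase IX, a membrane enzyme that acidifies the space around hypoxic tumor cells. It stood at 232 and 67.5 CPM in the EV libraries and at 0.15 and 0.19 CPM in the OE libraries (log2 fold change -9.72 against both, -8.57 against U87-EV-2). DEPP1, a target of FOXO factors, went from 51.2 and 23.8 CPM to 0.36 and 0.44 CPM (-6.50 and -5.84). NDP, the secreted Wnt receptor ligand norrin, went from 60.5 and 28.0 CPM to 1.24 and 1.65 CPM (-4.93 and -4.26). TSPAN15, a tetraspanin that partners with the protease ADAM10, went from 10.8 and 6.46 CPM to 0.29 and 0.25 CPM (-4.95 and -4.53). All of these were higher in U87-EV-1 than in U87-EV-2, and both OE libraries lay below U87-EV-2, as the combined rule required. METTL7A, a lipid droplet methyltransferase, and WISP1, a matricellular CCN protein, had the opposite order between the EV libraries. METTL7A measured 8.98 and 10.4 CPM against 0.15 and 0.51 CPM (-4.82 and -4.90), and WISP1 15.7 and 26.1 CPM against 0.87 and 1.39 CPM (-4.19 and -4.49).

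CRACR2B, a regulator of store-operated calcium entry, measured 100.4 and 19.0 CPM against 2.26 and 2.85 CPM (-4.54 and -2.88). LRRC45, a centrosome linker protein, measured 179 and 44.5 CPM against 5.83 and 6.07 CPM (-4.23 and -2.90). For both, the value against both EV libraries was drawn down by the high level in U87-EV-1. ZP1, a zona pellucida glycoprotein, measured 16.2 and 4.55 CPM against 0.15 and 0.13 CPM, and CSDC2, a cold shock domain RNA-binding protein, 6.91 and 3.23 CPM against 0.22 and 0.32 CPM. NMU, the neuropeptide neuromedin U, had 158 counts over the EV group and 3 over the OE group, a 56.1-fold lower ratio (95% interval 18.8 to 275). HRCT1 had 110 and 2 counts (58.5-fold lower, interval 15.8 to 489). NMU and HRCT1 passed the low-count filter only through the EV libraries and were picked for their fall, so these intervals do not test it either. Of the genes named so far, a fit corrected for gene length called MEOX2, SERPINB2, MMP3, IL1B, IL24, HS3ST2, CA9, DEPP1 and NDP at an adjusted p below 0.05 in edgeR's quasi-likelihood test.

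**Figure D3:**
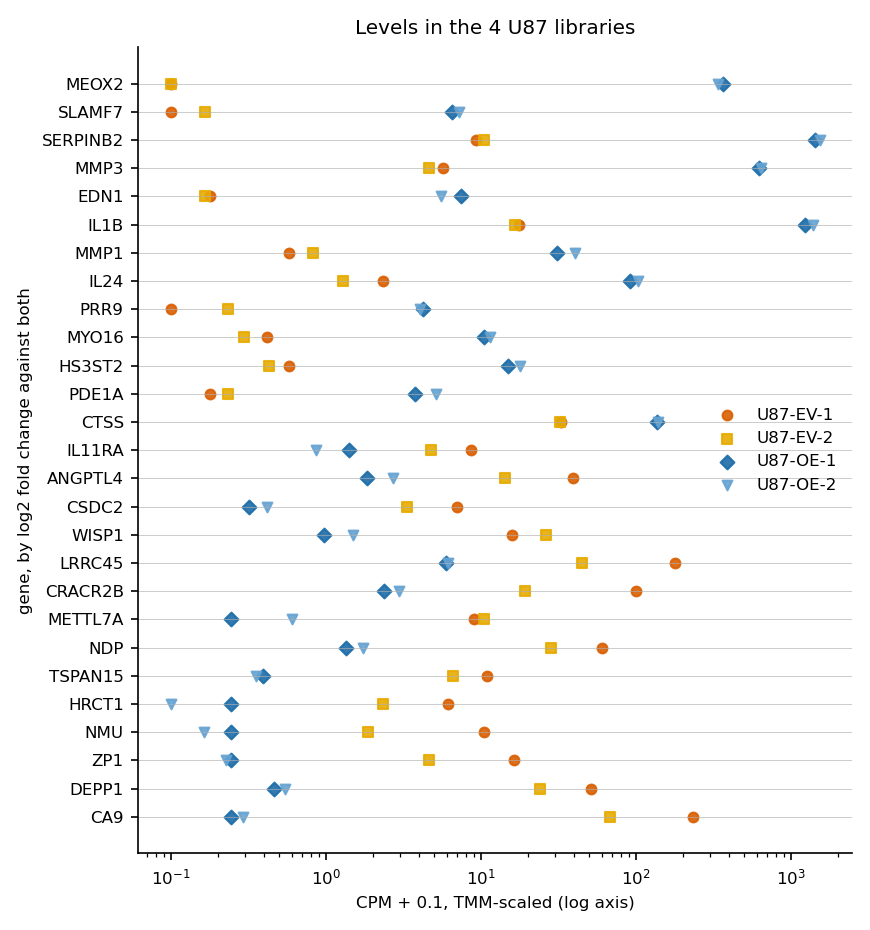
Levels of MEOX2, CTSS, ANGPTL4, IL11RA and the 12 genes with the largest rise and the 12 with the largest fall in each U87 library, as CPM plus 0.1 on a log axis, ordered by log2 fold change against both empty-vector libraries. The genes with the largest rise or fall were chosen partly because both overexpression libraries lie outside the range of the empty-vector libraries. CTSS, ANGPTL4 and IL11RA, put forward by the study from the same libraries, show this too. For METTL7A (0.15 and 0.51 CPM) the overexpression libraries lie farther apart than the empty-vector libraries. U87-EV-1 lies above U87-EV-2 for most genes that fell.

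Cytokines, chemokines and NF-kB regulators carry the inflammatory output of a cell, with NF-kB and AP-1 as their classical activators. Of 41 tested members of this list, 30 were higher and 5 lower against U87-EV-2 alone, and by the combined rule 18 rose and 3 fell. By the combined rule 7.83% of all tested genes rose and 10.2% fell, which is the background for each list below. The cytokine list's median log2 fold change was 0.84 against both and 1.02 against U87-EV-2. PTGS2, the inducible prostaglandin synthase COX-2, went from 7.55 and 15.2 CPM to 299 and 271 CPM (4.64 and 4.22). IL1A, interleukin-1 alpha, went from 4.53 and 2.44 CPM to 78.9 and 82.5 CPM (4.54 and 5.04). The members that fell were IL11RA, CSF1, the macrophage growth factor, and TNFAIP2, a TNF-induced protein. CSF1 measured 106 and 131 CPM against 52.4 and 51.4 CPM (-1.19 and -1.34), and TNFAIP2 52.7 and 99.4 CPM against 8.67 and 7.53 CPM (-3.23 and -3.62).

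Several genes that rose lie next to each other on a chromosome, as the plot of neighbors in chromosomal order shows. These neighborhoods were chosen after their values were seen, so the counts are a description. Within 500 kb of IL1B on chromosome 2 there are 19 protein-coding genes in the table, of which 14 were tested, and the 6 that rose are the tested members of the interleukin-1 family there. IL1A, IL1B and the ligands IL36B and IL36G rose together with the receptor antagonists IL36RN and IL1RN. IL36B measured 22.4 and 23.0 CPM against 185 and 185 CPM (3.03 and 3.01), IL36RN 7.23 and 7.06 CPM against 99.3 and 97.7 CPM (3.78 and 3.80), and IL1RN 4.93 and 3.23 CPM against 66.4 and 68.7 CPM (4.05 and 4.38). IL36G had 2 counts in the EV group and 43 in the OE group (ratio 20.2, 95% interval 5.26 to 172). The other 8 tested genes in the window neither rose nor fell, among them CKAP2L, which lies beside IL1A and measured 28.9 and 49.9 CPM against 43.4 and 44.4 CPM. IL37, IL36A and IL1F10 had at most 6 counts in any U87 library.

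Around CXCL8 on chromosome 4, 4 of 8 tested genes rose, and all were chemokines that attract neutrophils. CXCL8 (interleukin-8) went from 119 and 117 CPM to 2194 and 2397 CPM (4.28 and 4.29), CXCL2 from 50.8 and 31.3 CPM to 249 and 262 CPM (2.64 and 3.03), CXCL5 from 4.69 and 6.53 CPM to 29.4 and 28.0 CPM (2.35 and 2.14), and CXCL3 from 14.7 and 18.7 CPM to 59.8 and 67.3 CPM (1.93 and 1.76). CXCL1, their close paralog, measured 10.3 and 6.46 CPM against 13.3 and 13.0 CPM and did not pass the combined rule. CXCL1, CXCL2 and CXCL3 are near-identical copies, so their split of reads is uncertain.

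Around SERPINB2 on chromosome 18, SERPINB4 and SERPINB7 rose as well, while SERPINB8 measured 44.1 and 49.1 CPM against 66.8 and 64.9 CPM and did not pass. Around MMP3 on chromosome 11, MMP1, MMP10 and the apoptosis inhibitor BIRC3 rose. MMP10, stromelysin-2, had 0 counts in the EV group and 25 in the OE group, at least 7.83-fold higher over the floor of 3 counts. In the epidermal differentiation complex on chromosome 1, SPRR2A, SPRR2D, SPRR2E and PRR9 rose while the calcium-binding genes S100A3 and S100A4 fell. SPRR2D, a cornified envelope precursor, measured 14.9 and 2.90 CPM against 87 and 84.9 CPM (3.27 and 4.88). S100A4 measured 143 and 26.8 CPM against 7.80 and 8.67 CPM (-3.36 and -1.70). The SPRR2 genes are close copies of each other, and reads can be split between them.

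**Figure D4:**
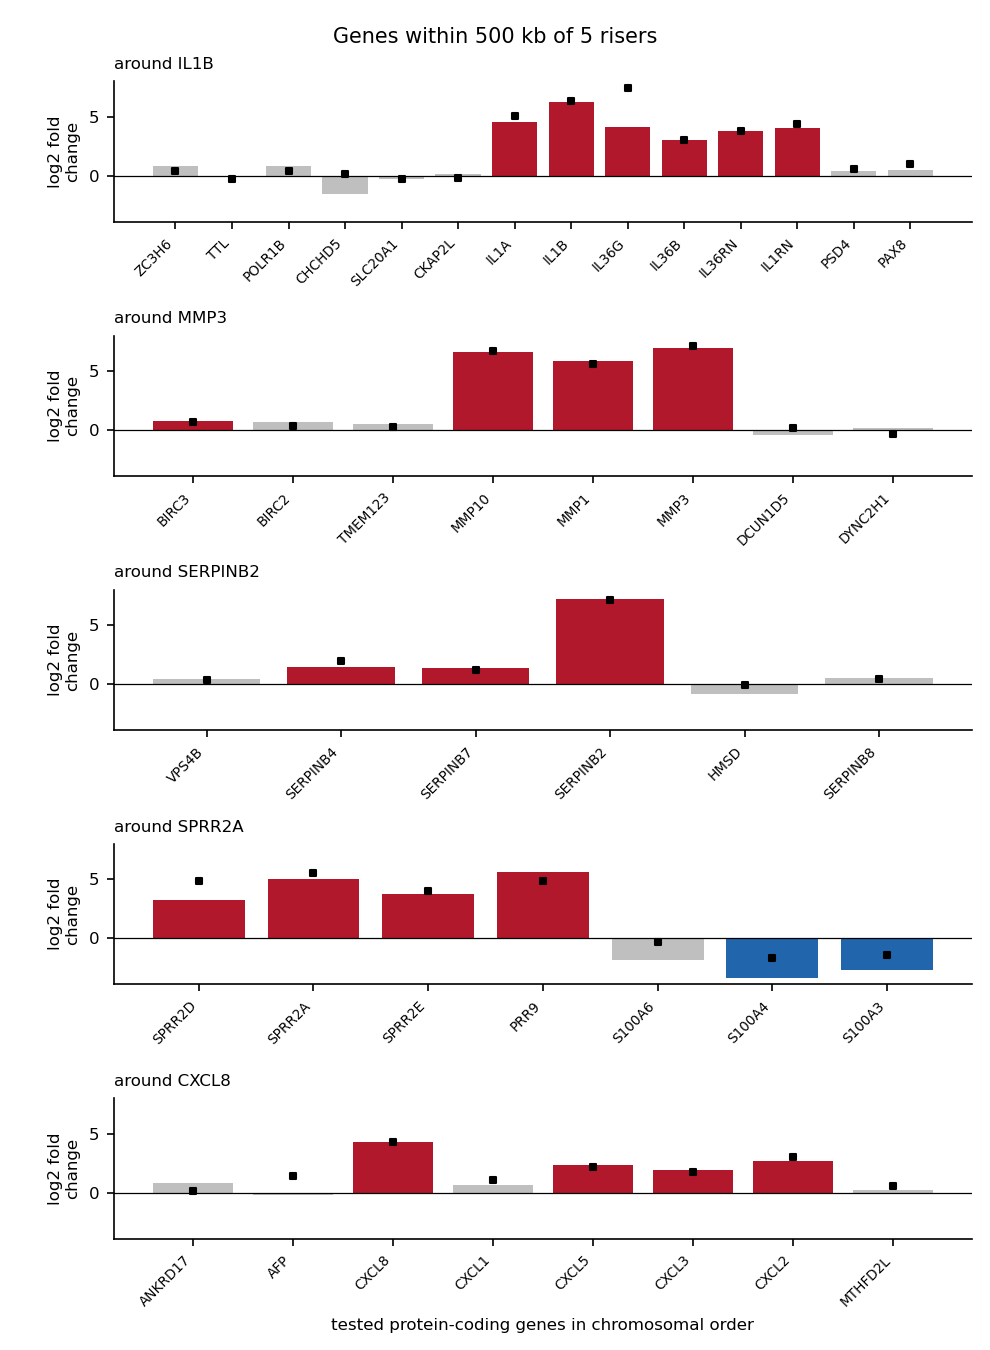
Log2 fold change against both empty-vector libraries (bars) and against U87-EV-2 alone (squares) for the tested protein-coding genes within 500 kb of IL1B, MMP3, SERPINB2, SPRR2A and CXCL8, in chromosomal order. Red genes rose, blue genes fell and grey genes did neither. The 6 red bars around IL1B, from 3.03 for IL36B to 6.27 for IL1B, stand between grey neighbors.

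Promoter sequences of RefSeq (GRCh38.p14, 250 bases before to 50 after the start) were matched to 10548 of the 14180 tested genes and searched on both strands for short elements. The AP-1 element TGANTCA (N is any base) was in 5.05% of these promoters, in 7.87% of those of genes that rose and in 5.46% of those of genes that fell. It was in 8 of 35 promoters of the cytokine list (22.9%). The NF-kB element (3 G, any 2 bases, 3 T and 2 C) was in 2.12% of all promoters, 3.08% and 2.09% of those that rose and fell, and 12 of 35 of the cytokine list (34.3%). The homeodomain core TAATTA was in 1.91% of all, 2.46% of those that rose and 1.91% of those that fell. The windows printed here show AP-1 elements before SERPINB2 and CXCL8 and NF-kB elements before CXCL2 and CXCL3, each as 100 bases from the 250 before the start site on the gene's strand, with the matched letters in capitals. A match is a description of these letters, not a binding site. Here and below, the share of a list counts every tested member with a promoter, whether or not it changed. The lists were written by hand from textbook knowledge of such genes, so their shares do not bear on the OE cells.
SERPINB2, chr18:63887556-63887655, plus strand: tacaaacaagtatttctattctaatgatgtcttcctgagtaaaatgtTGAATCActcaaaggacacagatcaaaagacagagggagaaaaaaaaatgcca
CXCL8, chr4:73740385-73740484, plus strand: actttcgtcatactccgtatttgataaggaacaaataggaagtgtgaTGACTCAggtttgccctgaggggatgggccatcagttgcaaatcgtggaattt
CXCL2, chr4:74099219-74099318, minus strand: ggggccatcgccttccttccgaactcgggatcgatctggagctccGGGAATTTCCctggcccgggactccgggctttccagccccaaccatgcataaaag
CXCL3, chr4:74038714-74038813, minus strand: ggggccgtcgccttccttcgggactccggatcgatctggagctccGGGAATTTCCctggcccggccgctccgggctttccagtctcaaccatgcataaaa

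Matrix proteases and their inhibitors shape the tissue around a tumor cell. Of 33 tested members, 8 rose and 4 fell, and 13 were higher and 13 lower against U87-EV-2 alone. SERPINB2, MMP3, MMP10 and MMP1 led those that rose. The members that fell were the metalloprotease ADAMTS12, the urokinase gene PLAU and the inhibitors TIMP2 and TIMP3. TIMP3 measured 42.8 and 51.9 CPM against 5.32 and 4.49 CPM (-3.27 and -3.41), and TIMP2 89.6 and 86.3 CPM against 35.5 and 35.3 CPM (-1.31 and -1.29). PLAU measured 110.4 and 87.4 CPM against 54.4 and 52.1 CPM (-0.89 and -0.71). The list's median stood at -0.13 against both and 0.10 against U87-EV-2.

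Fibrillar collagens, laminins and their cross-linking enzymes build the matrix itself. Of 42 tested members, 13 fell and 3 rose, and 26 were lower and 3 higher against U87-EV-2 alone. COL1A1, the chain of type I collagen, went from 983 and 1713 CPM to 136 and 121 CPM (-3.39 and -3.74). LOXL1, a lysyl oxidase, went from 132 and 123 CPM to 9.69 and 12 CPM (-3.55 and -3.49), and LAMA5, a laminin chain, from 159 and 281 CPM to 31.0 and 25.9 CPM (-2.95 and -3.31). FBLN5, LAMA1 and COL13A1 rose, with LAMA1 at 5.40 and 9.69 CPM against 23.0 and 21.6 CPM (1.56 and 1.20). Members of this list are long genes, with a median of 9276 bases, and the list's median log2 fold change was -0.71 against both, -1.01 against U87-EV-2 alone and 0.031 against U87-EV-1 alone.

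Among 21 tested genes of the epithelial-mesenchymal transition, 6 rose and 6 fell. The repressors of epithelial genes ZEB2 and ZEB1 rose, with ZEB2 at 40.1 and 98.5 CPM against 199 and 190.1 CPM (1.49 and 0.98) and ZEB1 at 14.3 and 31.6 CPM against 54.4 and 53.5 CPM (1.23 and 0.77). The tight junction gene CLDN1 rose too, from 3.66 and 6.33 CPM to 15.5 and 15.1 CPM (1.61 and 1.27). The mesenchymal genes VIM and FN1 fell. VIM, vimentin, measured 4551 and 1151 CPM against 552 and 567 CPM (-2.35 and -1.04), and FN1, fibronectin, 499.5 and 1686 CPM against 239.6 and 206 CPM (-2.30 and -2.92). The EV libraries lay far apart on both, in opposite directions. EPCAM, an epithelial adhesion gene, fell from 1.99 and 1.25 CPM to 0.36 and 0.32 CPM, so genes of either state moved in either direction.

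Focal adhesions link integrins to actin. Of 42 tested members, 2 rose and 4 fell by the combined rule, no more than the 7.83% and 10.2% of all tested genes. Members of this list are long genes too, with a median of 7921 bases. The list's median log2 fold change was -0.12 against both, -0.32 against U87-EV-2 alone and 0.30 against U87-EV-1 alone, so its sign depended on the control library. LIMS1, the adapter PINCH1, rose from 79.6 and 131 CPM to 450.4 and 426 CPM (2.05 and 1.74), and the talin gene TLN2 rose from 6.2 and 10.6 CPM to 24.7 and 21.8 CPM (1.47 and 1.14). The integrin chains ITGA3, ITGA7 and ITGB8 and the adapter BCAR1 fell. ITGA3 measured 2073 and 2913 CPM against 752 and 730.3 CPM (-1.75 and -1.97). Of 32 tested genes of actin filaments and of the SRF and YAP programs, 8 fell and 1 rose, the YAP target CYR61, from 38.9 and 38.3 CPM to 81.8 and 73.6 CPM (1.01 and 1.02). TAGLN, transgelin, fell from 13.1 and 8.64 CPM to 3.13 and 2.97 CPM (-1.83 and -1.50). The median log2 fold change of these 32 genes was -0.21 against both, -0.35 against U87-EV-2 alone and -0.095 against U87-EV-1 alone.

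The ERK pathway switches on immediate early genes and its own feedback inhibitors. Of 35 tested genes of this output, 15 rose and 0 fell by the combined rule, and 21 were higher and 4 lower against U87-EV-2 alone. The median was 0.64 against both and 0.46 against U87-EV-2. DUSP10, a MAP kinase phosphatase, went from 9.77 and 14.6 CPM to 99.6 and 102 CPM (3.05 and 2.79). FOSB, an AP-1 subunit, went from 1.19 and 0.53 CPM to 7.0 and 6.96 CPM (3.03 and 3.70), and the orphan receptor NR4A3 from 0.56 and 0.66 CPM to 4.45 and 4.18 CPM (2.80 and 2.69). ATF3, a stress-induced factor that also belongs to the ATF4 list, went from 29.2 and 34.0 CPM to 179 and 201 CPM (2.59 and 2.48).

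Of 37 tested receptor tyrosine kinases and their ligands, 6 rose and 3 fell. The ligands FGF2, EREG and NRG1 were among those that rose. EREG, epiregulin, a ligand of the EGF receptor, went from 299 and 457 CPM to 1780 and 1639 CPM (2.18 and 1.90), and FGF2, basic fibroblast growth factor, from 96.4 and 196 CPM to 709 and 684 CPM (2.25 and 1.83). PDGFRB, the PDGF receptor beta, fell from 19.1 and 32.5 CPM to 7.73 and 7.08 CPM (-1.80 and -2.14), and the ligand PDGFA fell from 26.9 and 22.4 CPM to 8.82 and 7.59 CPM (-1.59 and -1.45).

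In the TGF-beta and BMP pathway, 10 of 35 tested members rose and 8 fell. Those that rose included secreted BMP antagonists and a decoy receptor. BAMBI, a pseudoreceptor that blocks TGF-beta and BMP signals, went from 3.81 and 2.70 CPM to 68.7 and 72.9 CPM (4.44 and 4.71). GREM1, a BMP antagonist, went from 31.9 and 45 CPM to 303 and 289.9 CPM (2.95 and 2.72), and the ligand BMP2 from 10.3 and 13.4 CPM to 48.7 and 50.2 CPM (2.06 and 1.88). Those that fell included classical targets of the pathway. ID1 measured 515 and 171 CPM against 47.2 and 51.2 CPM (-2.80 and -1.80), ID3 129 and 56.2 CPM against 21.4 and 25.2 CPM (-1.99 and -1.27), and TGFBI 322 and 392 CPM against 52.0 and 51.1 CPM (-2.79 and -2.93).

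Of 29 tested angiogenic factors, 7 rose and 4 fell. ESM1, the endothelial proteoglycan endocan, had 0 counts in the EV group and 108 in the OE group, at least 33.8-fold higher over the floor of 3 counts. ANGPT1, the ligand that activates the TIE2 receptor, fell from 2.15 and 4.88 CPM to 0.58 and 0.76 CPM (-2.37 and -2.84), and ANGPT2, its context-dependent antagonist, rose from 0.24 and 0.13 CPM to 1.39 and 2.53 CPM (3.37 and 3.83). APLN, apelin, fell from 11.1 and 16.2 CPM to 2.11 and 1.58 CPM (-2.88 and -3.13). In the Notch and Wnt list, 3 of 34 tested members rose, near the 7.83% of all tested genes, and 6 fell, beside 10.2%. NOTCH1 rose from 36.0 and 70.4 CPM to 151 and 133 CPM (1.42 and 1.02), while NOTCH3 fell from 10.8 and 32.2 CPM to 3.72 and 4.36 CPM (-2.41 and -2.98). The Wnt inhibitor DKK1 rose from 3.74 and 3.69 CPM to 15.1 and 16.8 CPM (2.10 and 2.11).

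ATF4 is the transcription factor of the integrated stress response and drives amino acid synthesis and transport. Of 43 tested members of its list, 39 were higher and 1 lower against U87-EV-2 alone, and by the combined rule 18 rose and 1 fell. The median was 0.87 against both, 0.95 against U87-EV-2 and 0.77 against U87-EV-1. STC2, stanniocalcin-2, went from 104 and 122 CPM to 1170 and 1137 CPM (3.35 and 3.24). CTH, which makes cysteine, went from 25.0 and 33.5 CPM to 169 and 164 CPM (2.51 and 2.31), and SLC7A11, the cystine importer, from 30.4 and 69.0 CPM to 262 and 232 CPM (2.31 and 1.84). SHMT1, a serine hydroxymethyltransferase, was the member that fell, from 30.2 and 29.7 CPM to 7.87 and 7.97 CPM (-1.92 and -1.91). The CEBP-ATF element TGATGCAA was in 5 of 36 promoters of the list (13.9%) and in 0.55% of all promoters searched. It was in 0.98% of the promoters of genes that rose and 0.82% of those that fell. The window before CHAC1, which degrades glutathione, is shown for this element, which lies on the opposite strand as TTGCATCA in capitals. CHAC1, named for this match, rose from 24.3 and 18.1 CPM to 72.2 and 75.1 CPM (1.79 and 2.02).
CHAC1, chr15:40953221-40953320, plus strand: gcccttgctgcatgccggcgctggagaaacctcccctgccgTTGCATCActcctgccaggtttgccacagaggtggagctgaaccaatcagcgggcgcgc

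Of 32 tested NRF2 targets, 6 rose and 5 fell, beside 7.83% and 10.2% of all tested genes. TXNRD1, thioredoxin reductase, went from 194 and 417 CPM to 1372 and 1378 CPM (2.17 and 1.72), and HMOX1, heme oxygenase, from 37.0 and 29.2 CPM to 95.5 and 107 CPM (1.62 and 1.80), while AKR1B10, an aldo-keto reductase, fell from 8.34 and 4.55 CPM to 0.87 and 0.76 CPM (-2.97 and -2.47). Of 37 tested chaperones of the endoplasmic reticulum and heat shock, 3 rose and 4 fell, near the 7.83% and 10.2% of all tested genes. XBP1 and ERN1, the factor and the sensor of an arm of the unfolded protein response, rose, with XBP1 at 113 and 98.5 CPM against 286 and 288 CPM (1.44 and 1.54). HSPA8, a cytosolic chaperone, fell from 2031 and 1367 CPM to 754 and 848 CPM (-1.09 and -0.77). Of 12 tested metallothioneins and zinc genes, MT1F and MT1M fell and 0 rose. MT1 genes are near-identical copies, so their counts are uncertain.

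Genes of cell division were lower as groups. Of 39 tested mitosis genes, 36 were lower and 0 higher against U87-EV-2 alone, 22 fell and 0 rose by the combined rule, and the medians were -1.08 against both and -1.0 against U87-EV-2. CCNB1, cyclin B1, went from 229.8 and 179.8 CPM to 50.5 and 49.1 CPM (-2.04 and -1.85). CDC20, an activator of the anaphase-promoting complex, went from 436 and 204 CPM to 78.3 and 73.1 CPM (-2.08 and -1.43), and KIF20A, a cytokinesis motor, from 37.5 and 83.6 CPM to 13.2 and 12.7 CPM (-2.23 and -2.69). Of 43 tested DNA replication genes, 40 were lower and 2 higher against U87-EV-2, 28 fell and 0 rose, and the medians were -1.31 and -1.07. MCM5, a subunit of the replicative helicase, went from 280.1 and 187 CPM to 58.5 and 58.7 CPM (-2.0 and -1.68), and ORC1, of the origin recognition complex, from 22.7 and 23.3 CPM to 5.32 and 6.14 CPM (-2.0 and -2.02). Neither median changed sign under any alternative processing run. The cell cycle homology region TTTGAA, known from genes of late cell cycle, was in 22 of 33 mitosis promoters (66.7%) and in 9.88% of all promoters, and the E2F element TTTCCCGC was in 11 of 37 replication promoters (29.7%) and 2.65% of all. Over the promoters of all genes that fell, the shares were 11.8% and 2.64%. Windows before CDC20 and the mitotic kinase gene PLK1 are shown with the first of these elements in capitals. PLK1, named for this match, fell from 155 and 148 CPM to 58.2 and 62.3 CPM (-1.33 and -1.30).
CDC20, chr1:43358869-43358968, plus strand: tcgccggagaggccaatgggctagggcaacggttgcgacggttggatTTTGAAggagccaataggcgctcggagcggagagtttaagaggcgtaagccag
PLK1, chr16:23678789-23678888, plus strand: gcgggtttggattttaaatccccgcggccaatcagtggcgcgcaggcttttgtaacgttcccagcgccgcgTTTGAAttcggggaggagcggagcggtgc

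Cell cycle inhibitors and p53 targets did not move as a block. Of 31 tested members, 3 rose (GADD45A, SESN2 and PLK2) and 6 fell. GADD45A, a growth arrest gene, went from 95.6 and 86.4 CPM to 309 and 335 CPM (1.82 and 1.90), and SESN2, sestrin-2, from 173 and 159.5 CPM to 375 and 361 CPM (1.15 and 1.21). CCND3, cyclin D3, fell from 118 and 86.3 CPM to 41.8 and 46.6 CPM (-1.21 and -0.96), and the CDK inhibitor CDKN2D fell from 44.4 and 21.9 CPM to 8.96 and 10.3 CPM (-1.79 and -1.18). Of 31 tested apoptosis regulators, 5 rose and 4 fell. The BH3-only genes HRK, BMF and PMAIP1 rose and the BH3-only genes BBC3 and BAD fell, and the caspase inhibitor XIAP rose. PMAIP1, also called NOXA, measured 42.1 and 73.1 CPM against 154 and 161 CPM (1.45 and 1.11), and BBC3, also called PUMA, 20.3 and 17 CPM against 11.4 and 9.87 CPM (-0.81 and -0.67).

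Cholesterol synthesis and uptake is governed by the SREBP factors. Of 30 tested members, 25 were lower and 2 higher against U87-EV-2 alone, and 16 fell and 0 rose by the combined rule (medians -0.99 and -0.75). EBP, a sterol isomerase, went from 334 and 79.9 CPM to 29.6 and 31.6 CPM (-2.76 and -1.38), and MVD, a mevalonate enzyme, from 273 and 74.8 CPM to 28.6 and 29.7 CPM (-2.58 and -1.36). EBP and MVD were much higher in U87-EV-1 than in U87-EV-2. Of 37 tested genes of fatty acid handling, 3 rose, near the 7.83% of all tested genes, and 6 fell, beside 10.2%. SCD, stearoyl-CoA desaturase, fell from 1538 and 2349 CPM to 444 and 417 CPM (-2.17 and -2.45), while CPT1A, the gate of mitochondrial fatty acid oxidation, rose from 63.6 and 97.6 CPM to 157 and 148 CPM (0.92 and 0.65).

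Hypoxia-inducible factors raise glycolysis and pH control when oxygen is low. Of 47 tested members of this list, 28 were lower and 9 higher against U87-EV-2 alone, and 18 fell and 5 rose by the combined rule (medians -0.70 and -0.58). After CA9 came ALDOC, an aldolase, at 13.0 and 10.9 CPM against 1.02 and 2.15 CPM (-2.89 and -2.74). SLC16A3, the lactate exporter MCT4, measured 173 and 160 CPM against 24.4 and 22.6 CPM (-2.82 and -2.77), and PFKFB4, a regulator of glycolytic flux, 61.8 and 55.1 CPM against 9.62 and 8.79 CPM (-2.67 and -2.58). For SLC16A3 and PFKFB4 the EV libraries were nearly level, and the values against each were close. Other members of the list rose. ADM, the vasodilator adrenomedullin, went from 71.6 and 48.4 CPM to 157 and 162 CPM (1.41 and 1.72), HK2, hexokinase II, from 85.7 and 215 CPM to 404 and 374 CPM (1.37 and 0.86), and STC1, stanniocalcin-1, from 57.7 and 131 CPM to 229 and 234 CPM (1.29 and 0.82). STC2, given above with the ATF4 list, is on this list too. The hypoxia element core ACGTG was in 17 of 40 promoters of the list (42.5%) and in 27.0% of all promoters. Over the promoters of all genes that fell, the share was 23.3%. The window before CA9 carries the core on the opposite strand, as CACGT in capitals.
CA9, chr9:35673828-35673927, plus strand: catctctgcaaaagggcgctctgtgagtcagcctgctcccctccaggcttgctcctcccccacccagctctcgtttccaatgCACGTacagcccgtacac

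Antigen presentation genes were lower. Of 30 tested members of the HLA list, 19 were lower and 2 higher against U87-EV-2 alone, and 13 fell and 0 rose by the combined rule (medians -1.06 and -0.48). CD74, the invariant chain of class II molecules, went from 52.4 and 35.0 CPM to 4.88 and 3.86 CPM (-3.32 and -3.01). HLA-DMA, which loads peptides on class II, went from 22 and 7.72 CPM to 1.53 and 1.33 CPM (-3.37 and -2.43). HLA genes are polymorphic paralogs, and reads can be lost or shared between them. Cells of the immune system carry class II genes too, and the 6 microglia or macrophage markers summed to 16.4 and 16 CPM in the EV libraries and 2.55 and 3.80 CPM in the OE libraries. CSF1R held the largest part of each sum, ITGAM had 11 counts in U87-OE-2, PTPRC and AIF1 had at most 1 count in any library, and their part in the result was not tested. Of 45 tested interferon-stimulated genes, 3 rose, near the 7.83% of all tested genes, and 8 fell, beside 10.2%. The inducible genes CXCL11, RSAD2 and IFIT3 rose, with IFIT3 at 20.9 and 31.0 CPM against 59.0 and 64.8 CPM (1.25 and 1.00), while BST2, which tethers virus particles, fell from 3.42 and 1.52 CPM to 0.29 and 0.25 CPM (-3.14 and -2.45) and GBP2, a GTPase, fell from 40.0 and 27.7 CPM to 8.38 and 7.53 CPM (-2.09 and -1.80).

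Of 18 tested complement and acute phase genes, 2 rose and 6 fell. CD55, which shields cells from complement, rose from 42.4 and 39.7 CPM to 194 and 197 CPM (2.25 and 2.30). CFI, a protease that limits complement, had 25 counts in the EV group and 0 in the OE group, at least 8.87-fold lower. Of 45 tested cathepsin and lysosome genes, 4 rose and 3 fell, near the 7.83% and 10.2% of all tested genes. Besides CTSS, ATP6V1B2, a subunit of the proton pump, rose from 83.3 and 90.6 CPM to 333 and 328 CPM (1.93 and 1.87), and TPP1, a lysosomal peptidase, from 185 and 191 CPM to 443 and 407 CPM (1.18 and 1.15). TFEB, a master factor of lysosome genes, fell from 9.38 and 5.14 CPM to 1.90 and 2.09 CPM (-1.86 and -1.36), and its relative MITF rose from 5.64 and 7.06 CPM to 12 and 11.5 CPM (0.88 and 0.73).

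The 77 tested ribosomal protein genes had a median log2 fold change of -1.35 against both EV libraries, 0.020 against U87-EV-2 alone and -2.02 against U87-EV-1 alone. In the fit corrected for gene length their median was -0.96. By the combined rule 0 rose and 2 fell, RPL4 and RPS24. The 73 tested nuclear genes of the respiratory chain had medians of -1.16, -0.033 and -1.77 for the same 3 contrasts and -0.72 in the length-corrected fit. Of these, 0 rose and 3 ATP synthase genes fell. For both lists the correction for gene length left a median well below that against U87-EV-2 alone, and the reason was not tested. ATP5F1A, the alpha subunit, measured 615 and 375 CPM against 219 and 234 CPM (-1.13 and -0.72). Among 12 mitochondria-encoded genes, 9 were lower and 0 higher against U87-EV-2 alone and 3 fell. Their median was -0.48 against both, -0.41 against U87-EV-2, -0.59 against U87-EV-1 and -0.053 in the fit corrected for gene length. MT-CO3, a cytochrome c oxidase subunit, measured 7496 and 4378 CPM against 2580 and 2606 CPM (-1.20 and -0.76), and its length-corrected log2 fold change was -0.48 (adjusted p 0.472, edgeR). The share of all counts on mitochondria-encoded genes was 3.03% and 2.97% in the EV libraries and 2.37% and 2.28% in the OE libraries.

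**Figure D5:**
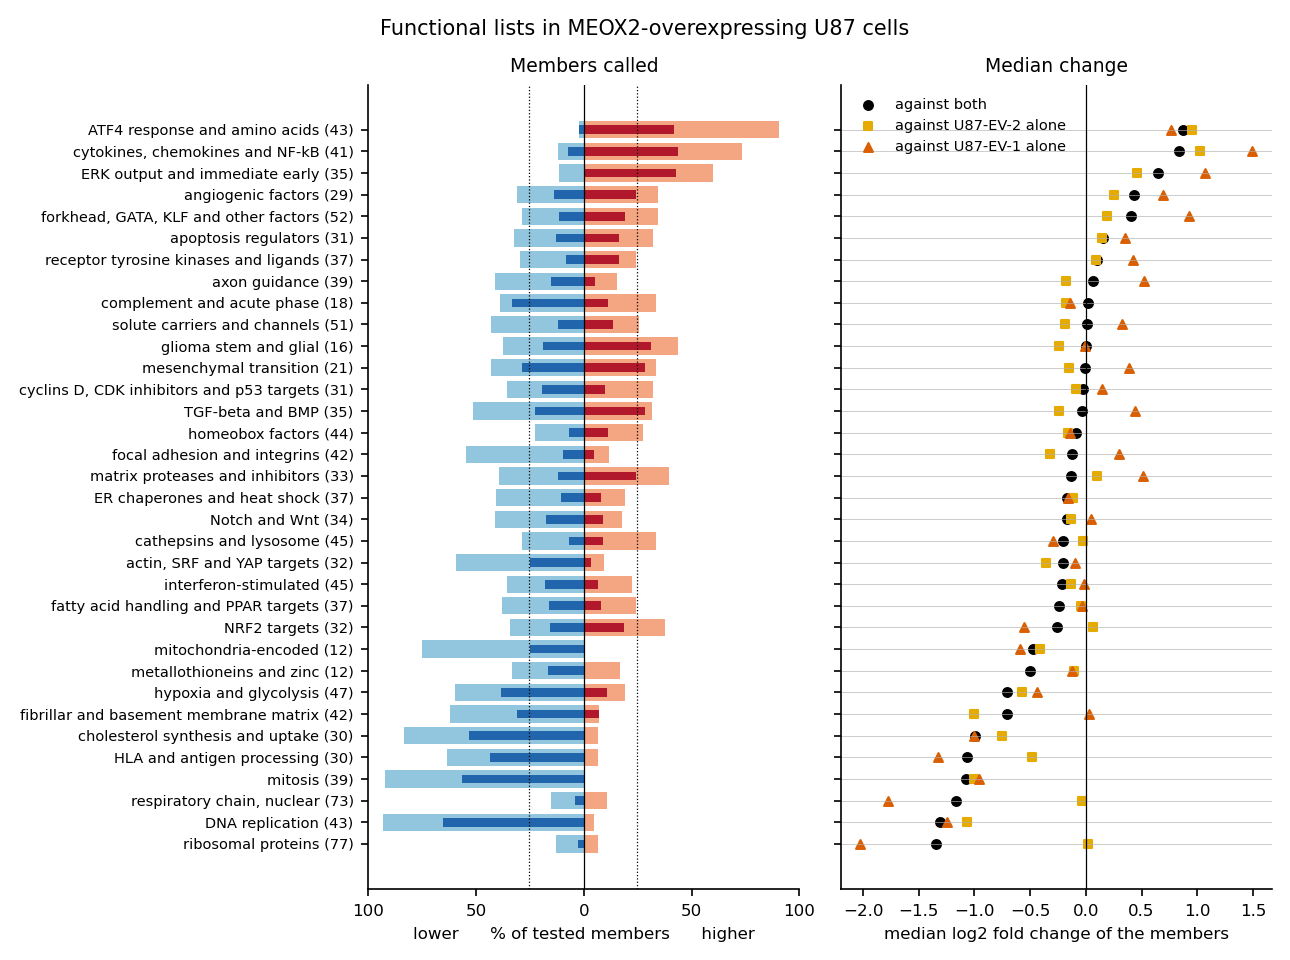
The 34 functional lists, ordered by median log2 fold change against both empty-vector libraries, with the number of tested members in brackets. Left, the percentage of members lower (blue) and higher (red) against U87-EV-2 alone in pale bars and by the combined rule in dark bars, with dotted lines at the 24.6% and 25.4% of all tested genes called against U87-EV-2 alone. Right, the median log2 fold change against both, U87-EV-2 alone and U87-EV-1 alone, which lie far apart for ribosomal proteins (-1.35, 0.020 and -2.02) and close together for mitosis.

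Of 52 tested forkhead, GATA, KLF and related factors, 10 rose and 6 fell, the latter near the 10.2% of all tested genes. KLF6 went from 72.3 and 129.5 CPM to 372 and 344 CPM (1.83 and 1.47), KLF10 from 64.5 and 109.5 CPM to 308 and 296 CPM (1.80 and 1.47), and GATA3 from 1.83 and 3.50 CPM to 10.9 and 9.42 CPM (1.92 and 1.53). NR2F1, the nuclear receptor COUP-TFI, fell from 24.7 and 29.6 CPM to 7.36 and 8.73 CPM (-1.75 and -1.87), and TBX2, a T-box repressor, from 106 and 78.3 CPM to 23.6 and 30.6 CPM (-1.76 and -1.52). Of 44 tested homeobox genes, 5 rose, MEOX2 included, and 3 fell, which is near the 7.83% and 10.2% of all tested genes. HOXB9 went from 0.48 and 0.13 CPM to 3.35 and 3.54 CPM (3.51 and 4.62). PITX1, a hindlimb factor, fell from 99.6 and 42.9 CPM to 24.7 and 28.9 CPM (-1.41 and -0.68).

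Of 16 tested genes of glioma stem and glial identity, 5 rose and 3 fell. OLIG2, a glial lineage factor, went from 6.91 and 4.35 CPM to 19.9 and 18.4 CPM (1.77 and 2.13), SOX4 from 4.77 and 7.58 CPM to 20.4 and 18.5 CPM (1.65 and 1.36), and MYC from 178 and 237 CPM to 592 and 609 CPM (1.54 and 1.34). NES, the intermediate filament nestin, fell from 21.7 and 12.9 CPM to 0.95 and 1.14 CPM (-4.04 and -3.61), and CHI3L1, a secreted marker of the mesenchymal glioma state, from 179.9 and 180.4 CPM to 18.7 and 19.6 CPM (-3.23 and -3.23). Of 39 tested axon guidance genes, 2 rose (NTN4 and SEMA3A) and 6 fell, beside 7.83% and 10.2% of all tested genes. PLXND1, a semaphorin receptor, fell from 18.7 and 28.6 CPM to 2.92 and 2.40 CPM (-3.15 and -3.43). Of 51 tested solute carriers and channels, 7 rose and 6 fell, beside 7.83% and 10.2% of all tested genes. SLC38A1, a glutamine transporter, rose from 240.3 and 528 CPM to 1081 and 1014 CPM (1.45 and 0.99).

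The 5 noncoding genes with the largest change held 3 that fell and 2 that rose. MIR210HG, the host gene of a hypoxia-induced microRNA, went from 31.7 and 11.8 CPM to 0.80 and 0.32 CPM (-5.28 and -4.42). H1FX-AS1 measured 10.3 and 3.17 CPM against 0.36 and 0.13 CPM (-4.76 and -3.69), and since the counting is not stated to use strand, its reads cannot be told apart from those of H1FX. AC002401.4 fell and LINC01326 and LINC02392 rose, with LINC02392 at 2.94 and 10.2 CPM against 121 and 113 CPM (4.14 and 3.51). Of the 5 genes with the highest mean CPM among those that rose or fell, MT-CO3, the actin gene ACTG1, the glycolytic gene PKM and the actin-sequestering gene TMSB10 fell and NAMPT, which makes NAD, rose. NAMPT measured 768 and 1168 CPM against 3998 and 4075 CPM (2.06 and 1.79), PKM 4959 and 3491 CPM against 2000.0 and 2038 CPM (-1.07 and -0.79), and TMSB10 7741 and 1327 CPM against 794 and 886 CPM (-2.43 and -0.66).

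The labelled line was checked against marker genes. CDKN2A, CDKN2B and MTAP, which lie in a region deleted in U87, had 0 counts in all 4 libraries. Of 9 glioma or astrocytic markers, 6 were tested and S100B had 0 counts throughout. Their summed level was 5519 and 2068 CPM in the EV libraries and 1221 and 1214 CPM in the OE libraries, through VIM and CD44. The microglia or macrophage markers are given above with the HLA list. The 4 oligodendrocyte markers summed to 8.27 and 6.53 CPM in the EV libraries and 28.7 and 27.8 CPM in the OE libraries, through OLIG2 and MBP, while MOG had at most 1 count. The 5 endothelial markers summed to 10.3 and 12.8 CPM in the EV libraries and 9.84 and 9.49 CPM in the OE libraries. Within this sum PECAM1 went from 6.8 and 4.9 CPM to 2.0 and 1.0 CPM, and KDR from 2.5 and 5.1 CPM to 6.8 and 6.7 CPM. CDH5 had at most 5 counts. Sums of smooth muscle or pericyte (125 to 209.9 CPM, through CSPG4), neuron (20.7 to 34.2 CPM) and epithelial markers (2.44 to 6.6 CPM) overlapped between the groups. The part of these levels in the results above was not tested.

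In SNB19, the libraries treated with MEOX2 siRNA held 54, 40 and 49 MEOX2 counts against 249, 224 and 275 with scramble siRNA. Of 15525 genes tested there, 4261 were higher (27.4%) and 4422 lower (28.5%) at an adjusted p below 0.05. Of the 1111 genes that rose in U87, 873 were tested in SNB19, and 390 of them (35.1% of the 1111) were higher and 185 (16.7%) lower after the siRNA. Of the 1446 genes that fell in U87, 1345 were tested, and 242 (16.7%) were higher and 651 (45%) lower after the siRNA. These percentages are over all genes of each U87 set, tested in SNB19 or not, so they have another base than the 27.4% and 28.5%. The 185 genes are 4.18% of all genes lower in SNB19, and the 242 genes are 5.68% of all genes higher there. More members of each set therefore had the same sign as in the OE cells than the opposite sign. The same held for the ATF4 list, with 39 higher and 1 lower of 43 after the siRNA. It held for the mitosis list, with 4 higher and 23 lower of 39, and the matrix list, with 3 and 26 of 36. The HLA list had 3 higher and 15 lower of 24, and the actin, SRF and YAP list 9 and 18 of 32. The ERK output list had 23 higher and 8 lower of 35, and the cytokine list 19 and 12 of 37, again as in U87. The hypoxia list had 27 higher and 7 lower of 47, the cholesterol list 16 higher and 2 lower of 30, and the DNA replication list 17 higher and 8 lower of 43, so these 3 lists leaned opposite ways in the 2 experiments. Whether the numbers differ from chance was not tested.

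Single genes varied in the same way. CA9 had 821, 583 and 816 counts with scramble siRNA and 1096, 1136 and 1168 with MEOX2 siRNA (log2 fold change 0.60, adjusted p 1.27e-06), opposite to its fall in the OE cells. IL1B had 178, 147 and 175 counts against 72, 106 and 120 (-0.76, adjusted p 0.00047), also opposite. IL24, however, had 158, 111 and 131 counts against 586, 874 and 839 (2.51, adjusted p 1.23e-11), and MMP3 had 80, 54 and 59 against 117, 133 and 116 (0.90, adjusted p 7.24e-05), so both were higher with more MEOX2 in U87 and with less in SNB19. NDP was lower in both settings, with 48, 47 and 42 counts against 10, 16 and 19 in SNB19 (-1.62, adjusted p 8.86e-05). SERPINB2 and PRR9 had at most 1 count in any SNB19 library.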

How the data were processed

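RNA of U87 and SNB19 cells was selected on poly-T beads, prepared with an NEBNext Ultra kit and sequenced as paired reads. Per the labels, HISAT2, HTSeq 0.11.2, DESeq2 1.26.0 and GRCh38 were used by the authors, and the annotation release is not given in the sources used here. The deposited counts are whole reads per gene as the authors made them, and the deposited FPKM values were scaled by the authors to gene length and library total. Counts were tested and FPKM served only to recover each gene's length.

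Counts were analysed in R 4.3.3 with edgeR 4.0.16 (TMM factors, quasi-likelihood test, Benjamini-Hochberg adjustment over all tested genes, threshold 0.05) after edgeR's filter on low counts within the U87 groups. The main test compared the overexpression libraries with both empty-vector libraries, and a second fit left out U87-EV-1. The edgeR test gives no standard error per gene, so the value of every library is printed. Totals ran from 12533775 to 16157874 counts, and intervals and floors (3 counts over a group) cover counting error only. Positions came from GENCODE release 29 (34567 genes matched, 100%) and promoters from RefSeq on GRCh38.p14.

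Genes named were MEOX2, CTSS, ANGPTL4 and IL11RA, the 12 largest changes in each direction with a mean CPM of at least 2, up to 4 a direction in each of 34 functional lists, 5 noncoding genes and the 5 most abundant. The rule asked for calls in both comparisons. As the main test made 0 calls, the combined rule, which uses an unadjusted p against both empty-vector libraries, took its place after the values were seen. The members and lists were chosen with earlier results of these data known. Alternatives were DESeq2 1.42.0, DESeq2's size factors, no filter, length-corrected offsets, a spread shared with SNB19, a replicate block, fold thresholds and leaving out each library. The scripts were tested on simulated data. Some genes that met the naming rule are not reported here.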

Additional observations from a re-analysis of the deposited data

How the results depend on the processing

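The number of genes called against both empty-vector libraries was the value that depended most on the processing. It was 0 with edgeR under TMM, with DESeq2's size factors and with an added 2-fold threshold, and 1863 without the low-count filter, 991 with DESeq2, 22 with length-corrected offsets (68.2% of them higher), 4629 when all libraries of both lines shared the spread and 2160 at an unadjusted p with 2-fold. Leaving out 1 library gave 41 to 10460 genes, with 7090 without U87-EV-1, 10460 without U87-EV-2 and 41 without either overexpression library. A group left with 1 library was assumed to vary like the other. With a replicate block the count was 468, with the block and length-corrected offsets 659, and with the crossed pairing, added after seeing the data, 1152. Replicate 1 of the U87 groups correlated at -0.24 in its deviations, and the SNB19 replicates at 0.003, -0.012 and 0.058. The SNB19 values show no pairing by number. In U87, with 2 libraries a group and U87-EV-1 apart along gene length, 1 correlation cannot settle whether the numbers pair the samples. Against U87-EV-2 alone the 7090 calls became 4151 with DESeq2, 2256 with an added 2-fold threshold and 2369 at an unadjusted p with 2-fold. The combined rule gave 2408 higher and 2509 lower genes with the shared spread. It gave 253 to 288 higher and 305 to 383 lower genes without 1 overexpression library, of which 249 to 271 and 291 to 350 were among the 1111 and 1446. Without TMM factors the log2 ratio of U87-EV-1 to U87-EV-2 was 0.66 in the shortest genes and -1.31 in the longest. Of 701 alternative values of 37 named genes, 372 stayed on the same side of the threshold, 329 passed it and 0 changed direction. Most of these genes were named because the groups did not overlap, so their direction could hardly change. Of 476 alternative list counts, 445 stayed within 1.5 times. The median log2 fold change of all genes was -0.057 under TMM and 0.10 without the low-count filter. The cause of these differences was not tested. With 2 libraries a side and empty-vector libraries that differed with gene length, small changes of short or long genes are not resolved.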
